A study of Sus scrofa with 20 samples.

Results

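Claudins, occludin and the proteins that hold them were followed in the ileal mucosa of suckling and weaned piglets. The genes considered were the claudins CLDN1, CLDN3, CLDN4, CLDN7 and CLDN15, occludin (OCLN), the scaffold protein TJP1 (ZO-1) and the junctional adhesion molecule F11R. Members were all probe sets of the Affymetrix Porcine Genome Array whose annotated gene symbol is one of these 8 names alone. They were 8 of the 23999 probe sets tested and belonged to 5 genes: 3 to OCLN, 2 to CLDN3 and 1 each to CLDN4, CLDN7 and TJP1. CLDN1, CLDN15 and F11R had no probe set under their symbol or gene identifier in the annotation used and were not analysed here.

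Each of the 20 arrays held RNA of ileal mucosa scraped from 1 crossbred (Landrace × Large white × Duroc) piglet. Suckling piglets were sampled at 14 days of age (S14D, 3 arrays), 21 days (S21D, 4 arrays), 28 days (S28D, 4 arrays) and 35 days (S35D, 3 arrays). Other piglets were weaned at 21 days of age onto a commercial diet and sampled at 28 days, 7 days after weaning (21W28D, 3 arrays), or at 35 days, 14 days after weaning (21W35D, 3 arrays). All groups were of the same cross. The methods take all these piglets from the litters of 4 sows, so that many share a mother, and since no source gives the litter of each array, p-values measure the spread between piglets and not between litters.

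Tight junctions seal the gap between neighbouring epithelial cells close to the gut lumen. Claudins are membrane proteins that pair across the gap and set which ions and small solutes pass between cells, occludin is a further membrane protein of the strand, and ZO-1 ties both to the actin skeleton. In the gut they are made mainly by the epithelium, and a scraped mucosa also holds lymphoid, vessel and stromal cells. In such bulk samples, fewer cells of a type and less RNA per cell cannot be told apart.

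The values were log2 units after gcRMA, from a floor of 2.08 to 16.41, and 41.6% of all values lay within 1 unit of the floor. Array medians were 5.07 to 5.35, no 2 arrays were identical, and their highest correlation was 0.9967. The labels S35D and 21W28D have been questioned in earlier work on these values, and the question was not settled here. By correlation over probe sets with a mean over 5 log2 units, 3 of the 3 arrays labelled S35D lay closer to the 21W35D mean than to the S28D mean. For the label 21W28D, 2 of 3 arrays lay closer to S28D than to 21W35D. The arrays labelled S35D share age with 21W35D as labelled and would share weaning with it if exchanged, so that this check cannot settle the labels. An adjusted p under 0.05 was found for 1570 probe sets from S28D to the arrays labelled S35D, from S28D to those labelled 21W28D 0 and from S21D to those labelled 21W28D 0, and with the 2 labels exchanged the counts were 0, 1570 and 857. Values are given by deposited label. The exchange, an alternative chosen after seeing the data, swaps the 2 groups in every comparison, so that a difference printed here from S28D to 21W28D is also the exchanged value of the one from S28D to S35D. Single arrays stood apart in marker lists (means of each list after centring every gene on all arrays): S14D replicate 1 in erythrocyte markers (3.54), the array labelled S35D replicate 3 in smooth muscle markers (2.64) and S14D replicate 3 (-3.64) and 21W35D replicate 2 (-3.47) in B cell markers.

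CLDN3, CLDN4, CLDN7 and OCLN were measurable in every array, and all 4 had their lowest group mean at S28D and their next lowest at 21W28D. The highest mean of CLDN3 and CLDN4 was in the arrays labelled S35D, and that of CLDN7 and OCLN was at S14D. Of the 8 probe sets, 5 lay above 4 log2 units in all 20 arrays. The other 3 lay near the floor: the second CLDN3 probe set at 2.10 to 2.62, the third OCLN probe set at 2.08 in every array, and the single TJP1 probe set at 2.41 to 3.20. Values of different probe sets depend on their probes and were not set against each other.

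**Figure D1:**
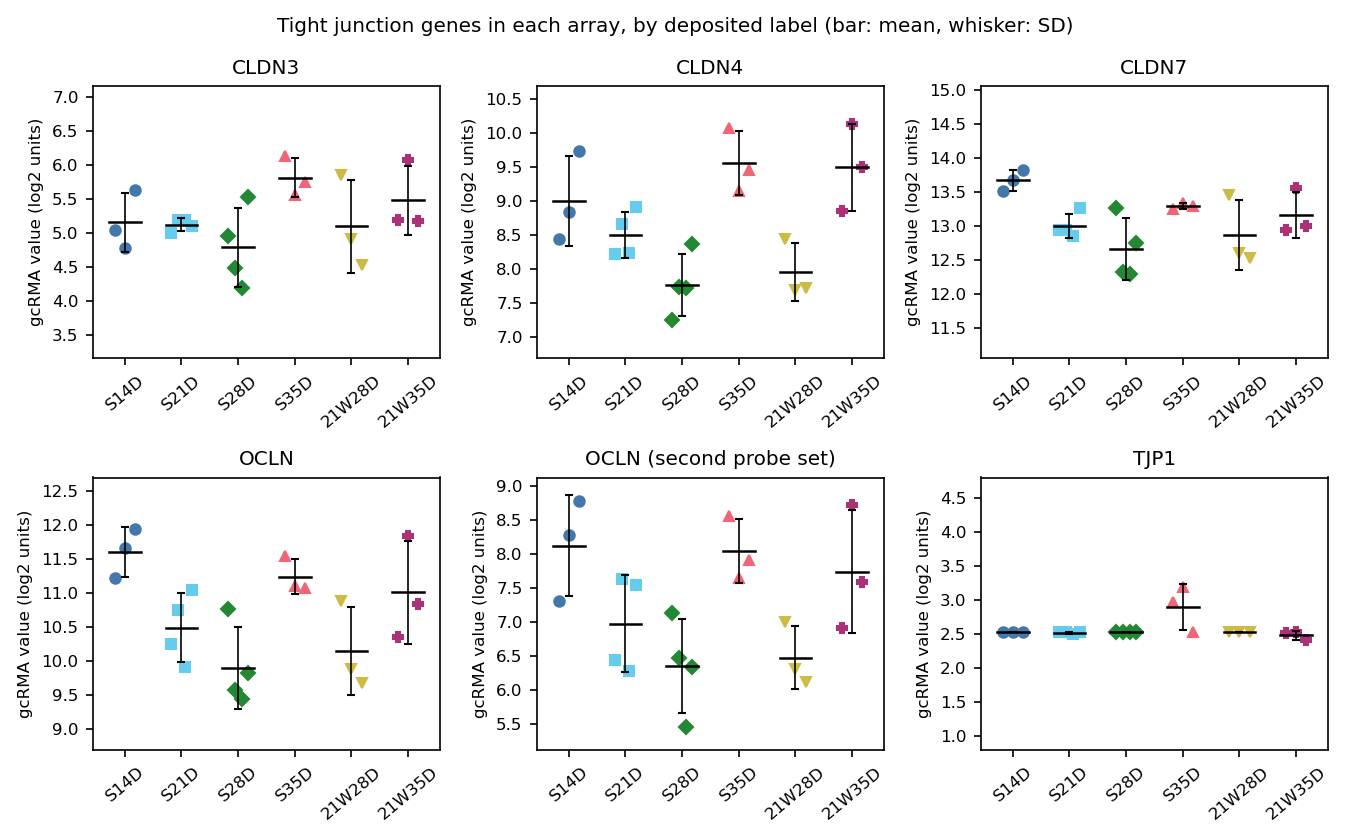
Level of each tight junction gene in log2 units after gcRMA (vertical axis, a separate range for each panel) in the 20 arrays, by deposited group label. Points are arrays, horizontal bars are group means and whiskers are SD. Means of CLDN3, CLDN4, CLDN7 and both OCLN probe sets are lowest at S28D, and TJP1 stays between 2.41 and 3.20, near the floor.

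CLDN4, a claudin of the gut surface epithelium, had a wider range of group means than CLDN3 or CLDN7. It stood at 8.45, 8.84 and 9.74 log2 units in the S14D arrays, at 8.22, 8.67, 8.24 and 8.91 at S21D and at 7.26, 7.74, 7.72 and 8.37 at S28D. The arrays labelled S35D held 10.08, 9.15 and 9.46, those labelled 21W28D held 8.45, 7.70 and 7.73, and 21W35D arrays held 8.86, 10.13 and 9.51. Each array labelled S35D and each 21W35D array lay above every S28D array and every array labelled 21W28D. Groups did not overlap in this direction for 8.88% of all probe sets from S28D to S35D and for 4.52% from 21W28D to 21W35D. From the lowest to the highest, the means ran from S28D (7.77 ± 0.46, SD, n = 4) through 21W28D (7.96), S21D (8.51), S14D (9.01) and 21W35D (9.50) to S35D (9.56), and neighbours in this order overlapped.

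CLDN3 is a sealing claudin, and its gene lies next to CLDN4 with 0 genes between them in the Sscrofa11.1 gene table. Its brighter probe set was at 5.05, 4.79 and 5.64 log2 units in S14D arrays, at 5.0, 5.20, 5.20 and 5.11 at S21D and at 4.96, 4.49, 4.19 and 5.53 at S28D. Arrays labelled S35D held 6.14, 5.57 and 5.75, arrays labelled 21W28D held 5.85, 4.92 and 4.53, and 21W35D arrays held 5.20, 6.07 and 5.18. The group means followed the same order as those of CLDN4, from 4.79 at S28D to 5.82 in arrays labelled S35D, with each group overlapping its neighbour. S21D arrays lay within a narrow band, while those of S28D and of the label 21W28D each spanned more than 1 log2 unit.

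CLDN7, a claudin found along the sides of gut epithelial cells, was near the top of the scale in every array. Its levels were 13.52, 13.68 and 13.82 log2 units at S14D, 12.94, 12.94, 12.86 and 13.27 at S21D, and 13.27, 12.33, 12.30 and 12.75 at S28D. Arrays labelled S35D were at 13.25, 13.34 and 13.30, arrays labelled 21W28D at 13.46, 12.61 and 12.53, and 21W35D arrays at 12.95, 13.56 and 13.00. S14D (mean 13.67) was the only group whose arrays did not overlap those of its neighbour in the order of means, S35D (13.30), and the other neighbours overlapped down to S28D (12.66).

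Occludin followed CLDN7 closely. Its brightest probe set was at 11.22, 11.66 and 11.95 log2 units in S14D arrays, 10.26, 10.75, 9.91 and 11.05 at S21D and 10.77, 9.57, 9.45 and 9.82 at S28D. It was at 11.54, 11.11 and 11.08 in arrays labelled S35D, 10.89, 9.89 and 9.68 in those labelled 21W28D, and 10.35, 11.84 and 10.84 at 21W35D. Group means ran from S28D (9.90 ± 0.60, SD, n = 4) through 21W28D (10.15), S21D (10.49), 21W35D (11.01) and S35D (11.24) to S14D (11.61 ± 0.37, SD, n = 3), and neighbours overlapped. In S28D and in the arrays labelled 21W28D, replicate 1 was the highest of its group for both OCLN and CLDN7. The second OCLN probe set ran from 5.47 to 8.79 and had its lowest mean at S28D as well (Pearson r with the brightest 0.96 over the 20 arrays).

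TJP1, the scaffold protein ZO-1, could hardly be followed. Its probe set lay at 2.98 and 3.20 log2 units in replicates 1 and 2 of the arrays labelled S35D, at 2.53 in replicate 3, and between 2.41 and 2.54 in all other groups. No array reached 4 log2 units, so that its changes are within the range where gcRMA compresses differences.

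The first comparison asked how the mucosa changes between 14 and 21 days of age. CLDN3, CLDN4, CLDN7 and OCLN all had lower means at S21D than at S14D, and none passed the test. OCLN differed by -1.12 log2 units (SE 0.41, 95% interval -2.0 to -0.23, limma adjusted p = 0.0835) and CLDN7 by -0.67 (SE 0.25, interval -1.20 to -0.14, limma adjusted p = 0.0845). For both genes, every S21D array lay below every S14D array, as for 13.8% of all probe sets. CLDN4 differed by -0.50 (interval -1.30 to 0.30) and CLDN3 by -0.03 (interval -0.79 to 0.72). In limma, 0 of the 5 genes had an adjusted p under 0.05, against 14.9% of all probe sets, and 2 had an unadjusted p under 0.05 (28.4% of all probe sets). The median over the 5 genes was -0.50 and that over all probe sets was 0. The count rose to 2 (CLDN7 and OCLN) when probe sets under 4 log2 units in all but 2 arrays were left out of the adjustment, where 32.7% of the probe sets kept passed, and to 1 (CLDN7) when only these 2 groups were fitted (10.7%). The methods' t-test called 1 gene (OCLN, against 14.0% of probe sets) at its unadjusted threshold with a 2-fold minimum and 1 (CLDN7, against 13.4%) after Benjamini-Hochberg adjustment.

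Between S21D and S28D the 4 measurable genes again had lower means, and none passed. CLDN4 differed by -0.74 log2 units (SE 0.35, interval -1.48 to 0), OCLN by -0.59 (SE 0.38, interval -1.41 to 0.23), CLDN7 by -0.34 (interval -0.84 to 0.15) and CLDN3 by -0.33 (interval -1.03 to 0.36), and all 4 pairs of groups overlapped. In limma, 0 of 5 genes had an adjusted or an unadjusted p under 0.05, against 0.00417% and 1.62% of all probe sets. The median over the genes was -0.34.

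From S28D to the arrays labelled S35D, CLDN4 rose by 1.79 log2 units, or 3.45-fold (SE 0.38, 95% interval 0.99 to 2.59, limma adjusted p = 0.0182), and every array labelled S35D lay above every S28D array. TJP1 rose by 0.38 (SE 0.10, limma adjusted p = 0.0396), a change made by 2 of 3 arrays near the floor, in groups that overlapped. OCLN was 1.34 higher (2.53-fold, SE 0.41, interval 0.45 to 2.22, limma adjusted p = 0.066), its second probe set 1.69 higher (limma adjusted p = 0.0627) and CLDN3 1.02 higher (SE 0.35, limma adjusted p = 0.0911), and the OCLN and CLDN3 groups did not overlap, as for 8.88% of all probe sets in this direction. CLDN7 was 0.64 higher (interval 0.10 to 1.17, limma adjusted p = 0.135) with overlapping groups. Of the 5 genes, 2 passed, against 6.54% of all probe sets (3.53% higher), all 5 had an unadjusted p under 0.05 (23.3%), and the median over the 5 genes was 1.02 against 0 over all probe sets. With probe sets under 4 log2 units in all but 2 arrays left out, 3 genes passed, CLDN3 (limma adjusted p = 0.0464), CLDN4 (limma adjusted p = 0.00871) and OCLN (limma adjusted p = 0.032), against 18.7% of the probe sets kept.

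This comparison depended on single arrays and on the labels. CLDN4 did not pass when S28D replicate 2 (1.78 log2 units, limma adjusted p = 0.0517), S35D replicate 1 (1.53, limma adjusted p = 0.111) or S35D replicate 3 (1.84, limma adjusted p = 0.0519) was left out. TJP1 passed only with all arrays or with S35D replicate 3 left out (0.56). Without S28D replicate 1, CLDN4, CLDN7 and OCLN passed, 3 genes in all. For fits with arrays left out, here and below, the share of all probe sets that passed was not counted. With the labels S35D and 21W28D exchanged, CLDN4 differed by 0.19 and OCLN by 0.25, 0 genes and 0 of all probe sets passed. The methods' t-test called 3 genes (CLDN3, CLDN4 and OCLN, against 8.44% of probe sets) at its unadjusted threshold with a 2-fold minimum and 0 (against 0.0552%) after Benjamini-Hochberg adjustment.

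**Figure D2:**
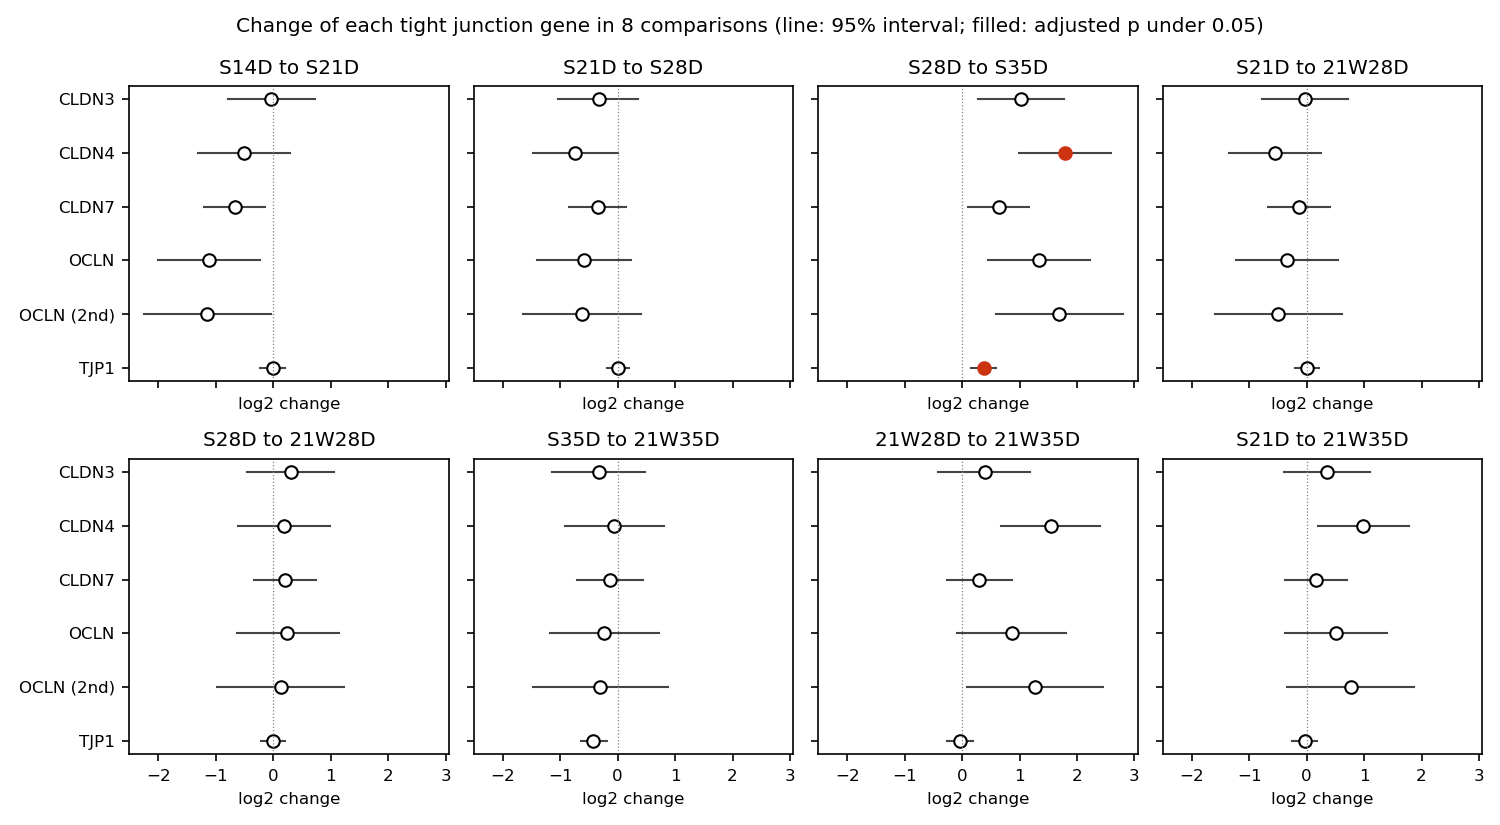
Log2 change (horizontal axis) of each tight junction gene in 8 comparisons of deposited groups, with 95% intervals from limma. Filled points have an adjusted p under 0.05: CLDN4 at 1.79 and TJP1 at 0.38, both from S28D to S35D, and open points do not.

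Over the 4 suckling ages together, a limma F test found variation in CLDN4 (adjusted p = 0.0181, range of group means 1.79 log2 units), OCLN (limma adjusted p = 0.0291, range 1.71), TJP1 (limma adjusted p = 0.032, range 0.38) and CLDN7 (limma adjusted p = 0.0401, range 1.01), and not in CLDN3 (limma adjusted p = 0.194, range 1.02). These were 4 of 5 genes, against 20.6% of all probe sets, and 4 had an unadjusted p under 0.05 (34.0%). The second OCLN probe set passed as well (limma adjusted p = 0.0465). The count was 1 (CLDN7) with the arrays labelled S35D and 21W28D left out, 0 with their labels exchanged (against 11.4% of all probe sets) and 0 when S35D replicate 1 was left out, and between 1 and 4 without each other array. It was 1, CLDN4 alone, without S14D replicate 2 or 3 or S28D replicate 2 or 3. It was 2 without S21D replicate 1 or 3, S28D replicate 4 or S35D replicate 2.

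The next comparisons asked what weaning does. At 7 days after weaning, the arrays labelled 21W28D differed from S21D by -0.55 log2 units in CLDN4, -0.34 in OCLN, -0.14 in CLDN7 and -0.03 in CLDN3, and from S28D, the suckling group of the same age, by 0.19 in CLDN4 (interval -0.61 to 0.99), 0.21 in CLDN7, 0.25 in OCLN and 0.31 in CLDN3. Groups overlapped for every gene in both comparisons. In limma, 0 of 5 genes passed in either comparison, and 0% of all probe sets did. No gene of the 5 had an unadjusted p under 0.05 in either, against 2.53% and 1.88% of all probe sets. The medians over the genes were -0.14 and 0.21. With the labels S35D and 21W28D exchanged, the same 2 comparisons gave 1.05 (limma adjusted p = 0.132) and 1.79 (limma adjusted p = 0.0182) for CLDN4, and 1 (TJP1) and 2 (CLDN4 and TJP1) genes passed, against 3.57% and 6.54% of all probe sets. Also exchanged, the difference from S21D was 0.75 in OCLN, 0.29 in CLDN7 and 0.69 in CLDN3, each above 0 where it was below as labelled.

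At 35 days of age, the difference between weaned and suckling piglets rested on the labels. As deposited, the 21W35D arrays differed from those labelled S35D by -0.06 log2 units in CLDN4 (interval -0.92 to 0.80), -0.13 in CLDN7, -0.23 in OCLN (interval -1.18 to 0.72) and -0.33 in CLDN3. The groups overlapped for these genes and 0 of 5 genes passed, against 0.0458% of all probe sets. TJP1, near the floor, differed by -0.42 (limma adjusted p = 0.358) and was the only gene with an unadjusted p under 0.05 (5.86% of all probe sets), and it passed with S35D replicate 3 left out. With the labels exchanged, CLDN4 was 1.54 higher (limma adjusted p = 0.236), OCLN 0.86, CLDN3 0.39 and CLDN7 0.30 higher in weaned piglets, and none passed. Whether the weaning difference was another at 35 than at 28 days was tested as an interaction, in which 0 of 5 genes and 0% of all probe sets passed: CLDN4 gave -0.25 (interval -1.42 to 0.93), and only TJP1 had an unadjusted p under 0.05 (-0.42, limma adjusted p = 1), as had 2.54% of all probe sets. TJP1 passed there too with S35D replicate 3 left out, and exchanging the labels leaves this contrast as it is.

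Among weaned piglets, CLDN4 was 1.54 log2 units (2.91-fold) higher at 21W35D than in the arrays labelled 21W28D (SE 0.40, interval 0.68 to 2.40), in groups that did not overlap (4.52% of all probe sets in this direction), and did not pass (limma adjusted p = 0.236). OCLN was 0.86 higher (limma adjusted p = 0.565), CLDN3 0.39 and CLDN7 0.30. In limma, 0 of 5 genes passed, against 0.0792% of all probe sets, and 1 had an unadjusted p under 0.05 (8.86%). The methods' t-test called CLDN4 at its unadjusted threshold with a 2-fold minimum (1 gene, against 1.22% of probe sets) and 0 genes after Benjamini-Hochberg adjustment. With the labels exchanged, the difference in CLDN4 was -0.06, that of the second OCLN probe set turned from 1.27 to -0.30, and OCLN (-0.23), CLDN3 (-0.33) and CLDN7 (-0.13) turned as well.

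The comparison of weaning day with 14 days after weaning uses neither group in doubt. From S21D to 21W35D, CLDN4 was 0.99 log2 units higher (SE 0.38, limma adjusted p = 0.341), OCLN 0.52, CLDN3 0.36 and CLDN7 0.16. In limma, 0 of 5 genes passed, against 0.296% of all probe sets, 1 had an unadjusted p under 0.05 (11.2%), and the median was 0.36. All these comparisons share groups with each other, so their values are not independent.

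Other genes of the tight junction were taken from 3 lists: other claudins, other membrane proteins and the cytoplasmic plaque with polarity proteins. Of these, 21 genes had a probe set and 13 reached 4 log2 units in some array. CLDN11, a claudin best known from myelin and testis, fell by 3.19 log2 units from S14D to S21D (SE 0.25, limma adjusted p = 2.29e-06). The S21D values lay near the floor, where gcRMA compresses differences, so that 3.19 is no exact measure of the fall. It was at 6.04, 5.71 and 6.70 in S14D arrays, at 3.24, 3.40, 2.61 and 2.58 at S21D, and between 2.08 and 3.43 in all later arrays. No other group overlapped S14D, and from S14D to S21D 13.8% of all probe sets were lower without overlap. The fall of CLDN11 was between 2.92 and 3.41 on the log2 scale with any 1 array of these 2 groups left out.

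RAB13, a small GTPase of vesicle traffic to the tight junction, fell by 0.94 log2 units from S14D to S21D (SE 0.18, limma adjusted p = 0.004) and rose by 1.16 from S28D to the arrays labelled S35D (SE 0.18, limma adjusted p = 0.00664). Its values were 9.35, 9.59 and 9.51 at S14D and 8.44, 8.59, 8.55 and 8.60 at S21D. They were 8.64, 8.06, 8.21 and 8.60 at S28D and 9.73, 9.42 and 9.47 in the arrays labelled S35D. S14D and the arrays labelled S35D lay above both groups between them without overlap. From S14D to S21D 13.8% of all probe sets were lower without overlap, and from S28D to the arrays labelled S35D 8.88% were higher.

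From S14D to S21D, CLDN11 and RAB13 were the only genes of the 21 that passed, 9.52% against 14.9% of all probe sets, and the median over the 21 was -0.25. From S28D to the arrays labelled S35D, 5 of 21 rose (23.8% against 6.54%) and none fell, with a median of 0 over the 21 genes, 8 of which did not reach 4 log2 units. Besides RAB13 these 5 were CLDN10, a claudin that forms ion channels (2.46, SE 0.68, limma adjusted p = 0.0454), CXADR, an adhesion protein of the junction (1.51, limma adjusted p = 0.0311), MARVELD3, a relative of occludin (1.35, limma adjusted p = 0.0492), and LSR, which recruits tricellulin to corners where 3 cells meet (1.31, SE 0.27, limma adjusted p = 0.0166). With dim probe sets left out, 7 passed, against 18.7% of the probe sets kept. The genes added were PRKCZ, which was higher (0.94), and MPDZ, which was lower (-0.89). Group means of LSR were 9.14, 8.43, 8.14 and 9.46 at the 4 suckling ages, those of MARVELD3 9.65, 8.54, 8.46 and 9.81, and those of CXADR 11.61, 10.75, 10.22 and 11.73. With the labels exchanged, CLDN10 differed by 1.00, CXADR by 0.38, LSR by 0.29, MARVELD3 by 0.13 and RAB13 by -0.01, and 0 passed. The count was 1 (RAB13) when S28D replicate 2 or S35D replicate 1 was left out, 2 (LSR and RAB13) without S28D replicate 3 or 4 or S35D replicate 3, and 3 without S35D replicate 2. In the other 6 comparisons of groups, 0 of the 21 genes had an adjusted p under 0.05 in limma, against 0% to 0.296% of all probe sets. An unadjusted p under 0.05 was found for 0 to 4 of the 21, against 1.62% to 11.2% of all probe sets. The count of 4 was from 21W28D to 21W35D (8.86%). Among other claudins, CLDN5, CLDN6, CLDN12 and CLDN14 stayed under 4 log2 units in every array.

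**Figure D3:**
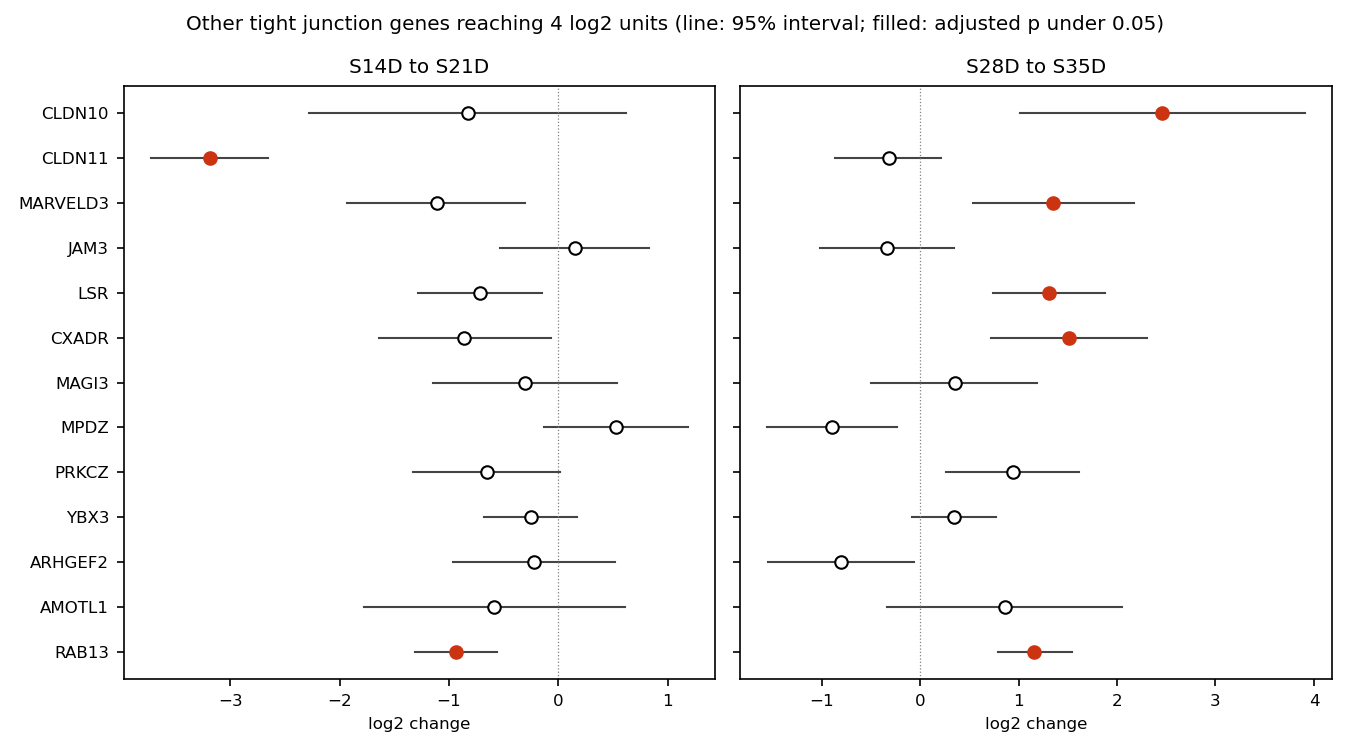
Log2 change (horizontal axes, separate ranges) of the 13 other tight junction genes that reached 4 log2 units, from S14D to S21D and from S28D to the arrays labelled S35D, with 95% intervals from limma. Filled points have an adjusted p under 0.05: CLDN11 (-3.19) and RAB13 (-0.94) on the left, and CLDN10, MARVELD3, LSR, CXADR and RAB13 on the right.

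Epithelial markers moved with the tight junction genes. Of 16 listed markers, 12 had a probe set and all 12 reached 4 log2 units. From S28D to the arrays labelled S35D, all 12 had an unadjusted p under 0.05 in limma (23.3% of all probe sets), with a median of 0.91. Of the 12, 4 passed, all higher, against 6.54% of all probe sets (3.53% higher). ST14 rose by 1.38 log2 units, KRT18 by 1.36, CDH17 by 1.10 and SPINT2 by 1.05. With labels exchanged, these 4 differed by 0.09, 0.14, 0.08 and 0.06 and did not pass. From S14D to S21D, SPINT2 alone passed, with a fall of 1.14 log2 units, against 14.9% of all probe sets. The median over the 12 was -0.59, and 4 had an unadjusted p under 0.05 in limma (28.4% of all probe sets). The mean of the 12 after centring was -0.82 to 0.10 in S28D arrays, 0.34 to 0.76 in arrays labelled S35D and 0.12 to 0.43 in S14D arrays.

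B cell markers were low in some arrays in which the tight junction genes were high. Of 13 listed, 4 had a probe set (BLNK, CD180, CD79B and SPIB), and the defining markers CD79A, MS4A1 and PAX5 were not among them. The mean of these 4 was -3.64 to 0.12 at S14D, 0.66 to 1.25 at S21D, 0.15 to 1.48 at S28D, -2.53 to -0.05 in arrays labelled S35D, 0.14 to 1.05 in those labelled 21W28D and -3.47 to 0.46 at 21W35D. From S14D to S21D, 2 of 4 passed, against 14.9% of all probe sets: SPIB rose by 2.38 log2 units and BLNK by 1.14. From S28D to the arrays labelled S35D, 0 of 4 passed in limma, against 6.54%. There 3 had an unadjusted p under 0.05 (23.3% of all probe sets), among them BLNK (-1.03, limma adjusted p = 0.0513) and SPIB (-1.60, limma adjusted p = 0.172). Exchanged, BLNK was at -0.22 and SPIB at -0.13. The lowest values came from single arrays, and S14D replicate 1 (0.12) and 21W35D replicates 1 and 3 (0.46 and 0.24) were not low.

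Other marker lists were compared at the step from S14D to S21D too, where 14.9% of all probe sets passed. T cell markers rose in 5 of 9 measured genes (median 1.48). Medians of -0.88 for 9 smooth muscle markers, -0.59 for 6 fibroblast markers, -1.13 for 4 erythrocyte markers and -0.10 for 9 endothelial markers stood beside the falls of CLDN11 and RAB13. Of the 9 smooth muscle markers 1 fell, as did 1 of the 9 endothelial markers, each a smaller share than that of all probe sets. No fibroblast or erythrocyte marker passed in limma, with 1 and 3 at an unadjusted p under 0.05 (28.4% of all probe sets). The erythrocyte markers did not move together. The mean of HBB was higher at S21D (11.14) than at S14D (10.64), and HBE1 stayed at 2.08. AHSP was lower (4.7 to 2.29), as was ALAS2 (4.58 to 2.32), with SD of 2.88 and 2.93 at S14D. In limma, 0 genes of these 5 lists passed between S28D and the arrays labelled S35D, against 6.54% of all probe sets. There 1 T cell, 2 smooth muscle, 0 endothelial, 1 fibroblast and 1 erythrocyte marker had an unadjusted p under 0.05 (23.3% of all probe sets). The part of these cells in the results was not tested.

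**Figure D4:**
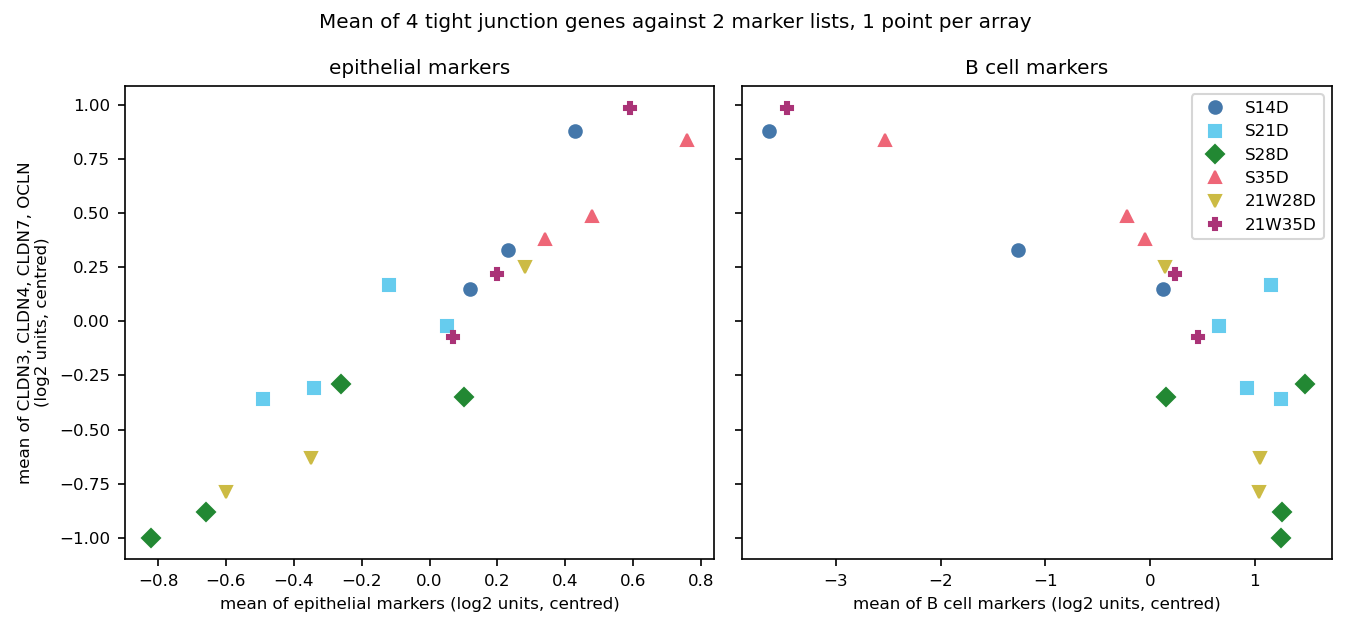
Mean of CLDN3, CLDN4, CLDN7 and OCLN in each array (vertical axis, log2 units after centring each gene on all arrays) against the mean of 12 epithelial markers (left) and of 4 B cell markers (right). Each point is 1 of 20 arrays, by deposited label, and the junction genes are high where epithelial markers are high, with the 3 lowest B cell means (-3.64, -3.47 and -2.53) in arrays with high junction genes.

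Across the 20 arrays, Pearson correlation with the mean of epithelial markers was 0.91 for OCLN, 0.84 for CLDN3 and CLDN7 and 0.81 for CLDN4. With the mean of the 4 B cell markers it was -0.84 for OCLN, -0.75 for CLDN4, -0.73 for CLDN7 and -0.62 for CLDN3. These values describe arrays that share groups and sample makeup, and genes of 1 array are not independent. CLDN7 and OCLN correlated most among the members (r = 0.94, and 0.89 after each group mean was removed), then CLDN3 with CLDN4 (0.77 and 0.70) and CLDN4 with OCLN (0.77 and 0.57). CLDN4 with CLDN7 was the least alike pair (0.62 and 0.38).

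With the mean of epithelial markers as a covariate, chosen with earlier results known, the difference from S28D to the arrays labelled S35D was 1.00 log2 units for CLDN4 (SE 0.48, limma adjusted p = 0.657), -0.10 for CLDN3 (SE 0.31), -0.23 for CLDN7 (SE 0.18) and -0.16 for OCLN (SE 0.25). None of the 5 genes passed, and 9 of all probe sets did (0.0375%) against 1570 without the covariate. CLDN4 stayed above 0, and the other 3 turned sign, CLDN3 and OCLN by less than 1 SE and CLDN7 by more than 1 SE. With labels exchanged, the same fit gave 0.03 for CLDN4 (SE 0.34), 0.08 for CLDN3, 0.04 for CLDN7 and -0.04 for OCLN. As labelled, none of the 21 other tight junction genes passed with the epithelial covariate. RAB13 was at 0.60 (-0.12 exchanged) and CLDN10 at 1.64 (0.84 exchanged). With the B cell mean as a covariate, CLDN4 was at 1.26 (SE 0.32, limma adjusted p = 0.0874), OCLN at 0.73 and CLDN3 at 0.59, and 210 probe sets passed (0.875%). Exchanged, that fit gave 0.11 for CLDN4. From S14D to S21D with the epithelial covariate, CLDN7 was at -0.22 (SE 0.14), OCLN at -0.34 (SE 0.20) and CLDN3 at 0.55 (SE 0.24). CLDN11 was at -3.09 (limma adjusted p = 4.04e-05) and RAB13 still passed, against 4.57% of all probe sets. With the B cell covariate at this step, CLDN7 was at -0.32, OCLN at -0.31, CLDN4 at 0.19 and CLDN3 at 0.54. In that fit 3.17% of all probe sets passed. In the F test over suckling ages, CLDN7 (limma adjusted p = 0.0346) and OCLN (limma adjusted p = 0.0441) passed with the epithelial covariate, against 9.12% of all probe sets, and CLDN4 (limma adjusted p = 0.555), TJP1 (limma adjusted p = 0.173) and the second OCLN probe set (limma adjusted p = 0.622) did not.

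**Figure D5:**
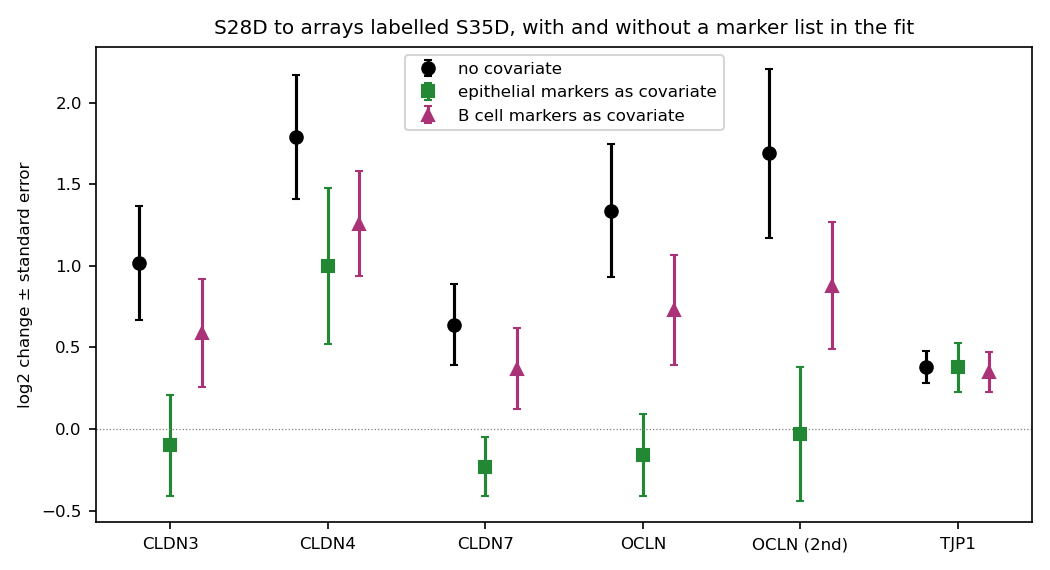
Log2 change from S28D to the arrays labelled S35D (vertical axis, with standard errors) for each tight junction gene without a covariate and with the mean of epithelial or of B cell markers in the fit. With epithelial markers, CLDN4 moves from 1.79 to 1.00 and OCLN from 1.34 to -0.16, while TJP1 stays at 0.38.

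The genes most like each member in pattern were sought among probe sets with 1 symbol and a mean over 5 log2 units, by Pearson correlation over the 20 arrays. For OCLN they were GATA6 (0.977), a transcription factor of the gut epithelium, CTBP2 (0.964) and BTBD3 (0.963), and for CLDN7 they were GATA6 (0.966), SMPD2 (0.960) and CD82 (0.958). For CLDN4 they were SDCBP2 (0.944), TMEM189 (0.931) and HYAL1 (0.931), and for CLDN3 CKMT1A (0.897), CIB1 (0.890) and ROGDI (0.886). The mean of the 4 measurable genes was followed most closely by GNG12 (0.963), ST14 (0.956), a membrane protease of epithelia, SLC44A4 (0.948), CERS2 (0.946) and CDH17 (0.945), an intestinal cadherin. ST14 and CDH17 are also among the 12 epithelial markers above.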

How the data were processed

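The deposited values are log2 values of 24123 probe sets on 20 arrays, each of 1 piglet. The authors made them with gcRMA, which corrects background by probe GC content, normalizes by quantiles and summarises probe sets, and GCOS 1.2 and GCRMA stand in the submitters' notes. The base of 2 was taken from the range of the values. No raw intensities were used here, and the number of arrays limits the precision.

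Left out were 124 Affymetrix controls, and 23999 probe sets were tested. By the platform annotation, 10069 had 1 gene symbol, 198 several and 13732 none, and 9961 matched the Sscrofa11.1 gene table by gene ID. No build is named for the values, so no coordinates are given. limma 3.58.1 (lmFit, eBayes) in R 4.3.3 was fitted with a mean for each of the 6 groups over all 20 arrays, and tested on simulated data. Benjamini-Hochberg adjustment ran over all probe sets tested, and a gene passed on its brightest probe set at an adjusted p under 0.05. An F test over the 4 suckling ages and an interaction of weaning with age used the same fit.

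Named are all members, up to 4 passing genes of each list in a comparison, and for like patterns the 3 genes with the highest correlation per member (5 for their mean). Members and lists were chosen with earlier results of these data known. Alternatives were a dim filter (4 log2 units in 3 arrays), 2-fold as a minimum, fits of only the compared groups, robust variance with an intensity trend, quantile normalization repeated, median centring, a gene's probe sets averaged, the methods' t-test, a replicate block, marker covariates, doubted groups left out or exchanged, TJP1 left out and each array left out. Python 3.11.15, numpy 2.4.6, pandas 2.3.3 and matplotlib 3.10.9 drew the figures.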

Additional observations from a re-analysis of the deposited data

How the results depend on the processing

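Counts of members that passed changed as follows. From S14D to S21D (0), the dim filter gave 2, only the compared groups gave 1, and the methods' t-test gave 1 at its unadjusted threshold with 2-fold and 1 after Benjamini-Hochberg adjustment. From S28D to the arrays labelled S35D (2), the count was 0 with only the compared groups, 0 in the adjusted t-test, 1 with a 2-fold minimum, 1 with TJP1 left out, 0 with either marker covariate, 0 with labels exchanged, 3 with the dim filter and 0 to 3 without single arrays. From 21W28D to 21W35D (0), the unadjusted t-test gave 1, and in the other comparisons either form gave 0. Exchanged labels gave 1 from S21D to 21W28D and 2 from S28D to 21W28D. For age (4), counts were 2 with the epithelial covariate, 0 with the B cell covariate, 1 without the doubted groups, 0 with labels exchanged and 0 to 4 without single arrays. Leaving out single arrays gave 0 to 1 from S35D to 21W35D and in the interaction, and 0 to 0 in the other comparisons. For the other tight junction genes from S14D to S21D (2), counts were 4 with the dim filter, 1 with 2-fold, 1 with the B cell covariate and 2 to 3 without single arrays. From S28D to the arrays labelled S35D (5), they were 7 with the dim filter, 0 with only the compared groups, in the adjusted t-test, with the epithelial covariate and with labels exchanged, 1 with the B cell covariate and 1 to 5 without single arrays. The sign turned with the epithelial covariate for CLDN3 (-0.10), CLDN7 (-0.23), OCLN (-0.16) and its second probe set (-0.03) from S28D to S35D, and with exchanged labels for CLDN4 (-0.06) and the second OCLN probe set (-0.30) from 21W28D to 21W35D. Exchanged labels also turned values whose unadjusted p was over 0.05: OCLN (-0.23), CLDN3 (-0.33) and CLDN7 (-0.13) in that comparison, CLDN4 (1.05), OCLN (0.75), its second probe set (1.07), CLDN7 (0.29) and CLDN3 (0.69) from S21D to 21W28D, and CLDN4 (1.54), OCLN (0.86), its second probe set (1.27), CLDN3 (0.39) and CLDN7 (0.30) from S35D to 21W35D. The cause was not tested. Median centring, repeated quantile normalization, an intensity trend and averaging all probe sets left every count within 1.5 times. Signal near the floor limits TJP1 and 2 other probe sets.

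Replicate numbers do not pair the arrays: of 46 same-numbered pairs, 20 had a correlation of deviations over 0.1 and 19 under -0.1 (median 0.03), and 6 of 20 arrays correlated best with their own number. With the number as a replicate block, 1 member (CLDN4) and 2 other tight junction genes (LSR and RAB13) passed from S28D to S35D, and 1 member (CLDN4) varied with age. The share of all probe sets that passed with this block was not counted, so these counts have no background beside them.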

Other observations

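Neighbouring junctions of the epithelial cell were measured by fewer genes. Of 6 adherens junction genes, 3 fell from S14D to S21D: VCL (vinculin) by 0.94 log2 units (limma adjusted p = 0.0389), NECTIN2 by 0.80 (limma adjusted p = 0.0239) and CTNNB1 (beta-catenin) by 0.53 (limma adjusted p = 0.0044), with a median of -0.56 over the 6. From S28D to the arrays labelled S35D, CDH1 (E-cadherin) alone rose, by 0.78 (limma adjusted p = 0.0373), and with the labels S35D and 21W28D exchanged it differed by 0.08. Of 3 desmosome genes, JUP (plakoglobin), which also serves adherens junctions, rose by 1.41 in the latter comparison (limma adjusted p = 0.0181) from values of 2.19 to 2.96, near the floor, to 3.56 to 4.42, and exchanged it differed by 0, and 0 passed in the former in limma, with 2 at an unadjusted p under 0.05. Of 4 gap junction genes, GJA4, a connexin of vessel walls, fell by 1.01 from S14D to S21D (limma adjusted p = 2.21e-05) while staying under 4 log2 units in every array, and in the later comparison limma called 0, with 2 at an unadjusted p under 0.05. The share of all probe sets that passed was 14.9% and 6.54% in these 2 comparisons. The share with an unadjusted p under 0.05 in limma was 28.4% and 23.3%.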
